A study of Caenorhabditis elegans with 4 samples.

Results

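The peaks described here are the binding regions of LIN-35 on chromosome V of the nematode Caenorhabditis elegans, as found by chromatin immunoprecipitation with sequencing (ChIP-seq). They were chosen by chromosome alone, as the entries of the authors' combined peak list that lie on V, and number 1010 of 5374. The worms were of strain YL468, with genotype unc-119(ed3) III and the transgene vrIs93, which drives LIN-35 tagged with GFP and FLAG from the mex-5 promoter and carries a working unc-119 gene. The strain had not been outcrossed, per the labels, and the labels do not say whether the native lin-35 gene was altered. Hermaphrodites were grown at 20 degrees Celsius to young adulthood and fixed in 2% formaldehyde, and their chromatin was precipitated with an antibody against GFP. Of the 4 samples, 2 were precipitated (replicates 1 and 2) and 2 were inputs of the same strain and stage, for which no processed file was analysed here. Whether replicates 1 and 2 stem from different cultures is not stated in the labels. The list of replicate 1 held 729 peaks on V of 3804 in all, and that of replicate 2 held 109 of 558.

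LIN-35 is the worm member of the retinoblastoma (Rb) family of pocket proteins. It does not bind DNA directly but is brought to promoters with E2F and DP proteins as part of the DREAM complex, which represses cell-cycle and germline genes. The mex-5 promoter is active in the germline, and the labels describe it as specific to that tissue, while the chromatin came from whole worms. Autosomes of this worm have a central region with most conserved and broadly expressed genes, and arms that recombine more, hold more repeats and carry more repressive histone marks. V is known for its large families of chemoreceptor genes, expressed mainly in sensory neurons. In the RefSeq gene table (assembly WBcel235) V held 888 of 1308 chemoreceptor genes, or 67.9%. The native genes whose sequences the transgene carries were listed on other chromosomes, lin-35 on I, unc-119 on III and mex-5 on IV. Where the transgene is inserted is not given.

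Coordinates are of the WormBase WS220 build. For every peak the lists give its limits and a q-value, the false discovery rate assigned by the authors' peak caller, but no height or fold. These q-values are the authors' own, depend on each list, and are compared only inside a single list. Read depth is unknown, so a region without a peak was not detected and is not shown to be unbound. No sequence or annotation of WS220 was used, so regions are given by position, and whether they lie in exons, introns or promoters was not analysed here. Peaks within a list are not replicates, and the tests below count each as independent although neighbouring peaks need not be. Their p-values describe these lists and not the spread between worm populations. All tests, also those not marked as added, were chosen with earlier results of these data known.

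In the combined list V carried a smaller share of LIN-35 peaks than its share of length or of genes, and it was not alone in this. It held 18.8% of combined peaks (95% Wilson interval 17.8 to 19.9), against 20.9% of the length of the 6 chromosomes (ratio 0.899, adjusted p = 0.000156, exact binomial test). The ratio to length was lower still on I (0.718) and X (0.774), and it was above 1 on II, III and IV. On V it was 0.917 in replicate 1 and 0.935 in replicate 2, where it did not pass the threshold (adjusted p = 0.466, exact binomial test). Set against protein-coding genes, of which V holds 4995 of 19971, its share of peaks was 0.751 of the share of genes (adjusted p = 6.43e-27, two-sided exact binomial test, Benjamini-Hochberg over 6 chromosomes). That was 20.2 combined peaks for every 100 genes, while III had 39.3, IV 30.8, II 29.0, X 26.8 and I 20.2. On I the share of peaks was 0.7505 of the share of genes, close to that on V. The ratio to genes on V was 0.766 in replicate 1 and 0.781 in replicate 2 (adjusted p = 0.00363 in replicate 2, exact binomial test). V was the most gene-dense of the chromosomes in this table, with 239 protein-coding genes per Mb. The comparisons with length and with genes were both added after the data were seen. Some rows of the lists may not have been analysed here, and the shares depend on the totals of all chromosomes. They were not recomputed without chromosome I.

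The strongest peaks of V were found in both replicates. The top-ranked combined peak of V lay near the middle of the chromosome, at V 10897001 to 10897604, with q = 1.40e-59. The replicate peaks there had q = 1.05e-44 over 478 bp and q = 2.16e-18 over 354 bp, and the region ranked 7 in the combined list and in each replicate list. Ranks count all peaks of a list on all chromosomes, and since the lists differ in length, ranks in different lists show no difference between them. The next, at V 18967546 to 18968032 in the right arm, had a combined q of 4.44e-45 and ranked 14 in replicate 1 and 38 in replicate 2. That arm held 166 combined peaks, against 221 in the left arm. In the left arm the strongest was at V 264951 to 266005, close to the chromosome end, with a combined q of 6.21e-41 and ranks of 12 in replicate 1 and 30 in replicate 2. Its limits were nearly the same in all 3 lists, with widths of 1055 bp (combined), 1033 bp (replicate 1) and 1022 bp (replicate 2).

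Some of the strong regions were broad in the combined list and split into several peaks in the replicates. The region at V 9342902 to 9344502, 1601 bp wide with a combined q of 6.71e-45, overlapped 2 peaks in each replicate, the better of which ranked 97 in replicate 1 and 23 in replicate 2. The widest peak of V, at 14686421 to 14689012, spanned 2592 bp and overlapped 3 peaks of replicate 1 and 2 of replicate 2, with best ranks of 92 and 27. Its combined q was 1.53e-39. The region at V 11075638 to 11076882 was 1 peak in every list and ranked 38 in replicate 1 and 16 in replicate 2.

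The remaining 4 of the 10 strongest were each a single peak in all 3 lists. At V 12343489 to 12343930 the ranks were 30 in replicate 1 and 95 in replicate 2, and at V 12291602 to 12291975 they were 41 and 147. At V 15766182 to 15766554, just inside the right arm, they were 42 and 82. The region at V 6224069 to 6225738 ranked 68 in replicate 1 and 342 in replicate 2, the lowest place in replicate 2 among the 10. All of the 20 strongest combined peaks of V overlapped both replicates, as did 42 of the 50 strongest and 65 of the 100 strongest. The combined list is not independent of the replicate lists, so these overlaps are a description and no separate support. Of the 10 strongest, 7 lay in the central part, 1 in the left arm and 2 in the right arm.

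**Figure D1:**
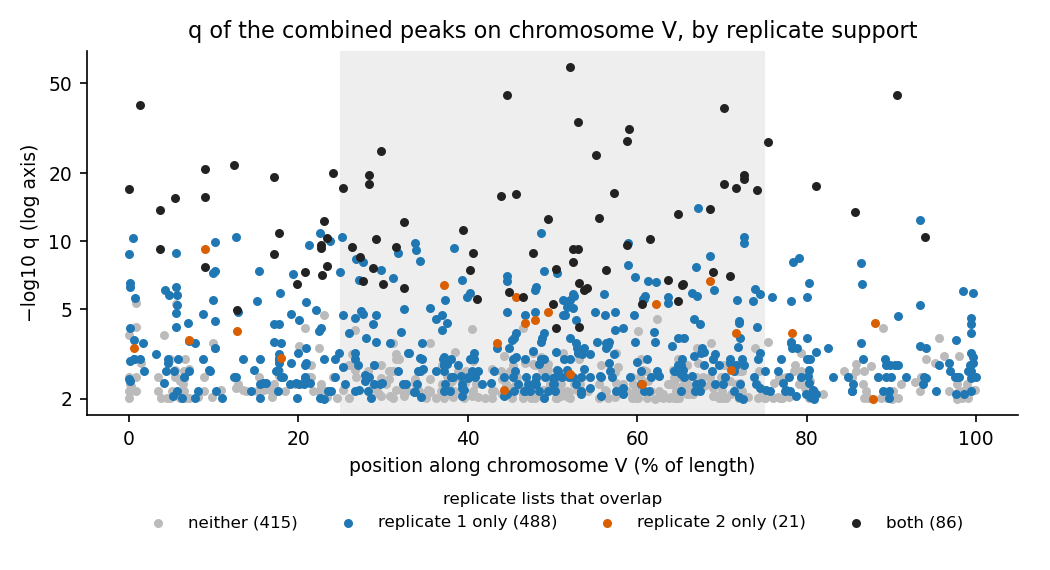
Each point is a combined peak on V, placed by its midpoint as % of chromosome length and by −log10 of the authors' q on a log axis, and coloured by the replicate lists it overlaps; the shaded band is the central 50%. Peaks found in both replicates (86) occupy the upper part of the plot, and the right arm holds 5 of them.

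The first comparison asked whether LIN-35 peaks were gathered in the centre of V. The centre was taken as 25% to 75% of chromosome length by peak midpoint, with the highest peak end in any list (20913412) as the length. The centre held 623 combined peaks, or 59.6 per Mb, and the arms held 387, or 37.0 per Mb. The central share was thus 61.7% (58.6 to 64.6) and lay above 50% (adjusted p = 6.62e-13, exact binomial test). In replicate 1 the counts were 427 in the centre and 302 in the arms, a share of 58.6% (adjusted p = 2.50e-05, exact binomial test). In replicate 2 they were 74 in the centre and 35 in the arms, a share of 67.9% (adjusted p = 0.00142, exact binomial test). The central share was also taken by strength, without a test between the groups. In the best 25% of V peaks by q the central share was 62.3% (56.2 to 68.1), in the following groups 62.5% and 62.8%, and in the last 25% it was 59.1% (53.0 to 65.02).

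V was more centred than the other autosomes as a pool in the combined list. The central share was 61.7% on V and 55.2% (53.6 to 56.8) on chromosomes I to IV together, a difference of 6.45 percentage points (adjusted p = 0.000751, two-sided Fisher's exact test, Benjamini-Hochberg over 6 chromosomes). The other autosomes were not alike, with central shares of 57.5% on II, 57.3% on III, 53.0% on IV and 51.5% on I. II and III also lay above 50% (adjusted p = 5.34e-06 for each, exact binomial test), and V was not tested against either alone. In replicate 1 the shares were 58.6% on V and 54.0% on the others (adjusted p = 0.0769, Fisher's exact test). In replicate 2 they were 67.9% on V and 56.9% on the others (adjusted p = 0.114, Fisher's exact test). Neither replicate alone passed the threshold of 0.05. The difference also missed it when the fullest 1 Mb of V was left out (57.8% on V, adjusted p = 0.249, Fisher's exact test), a step that removes central length from V alone.

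**Figure D2:**
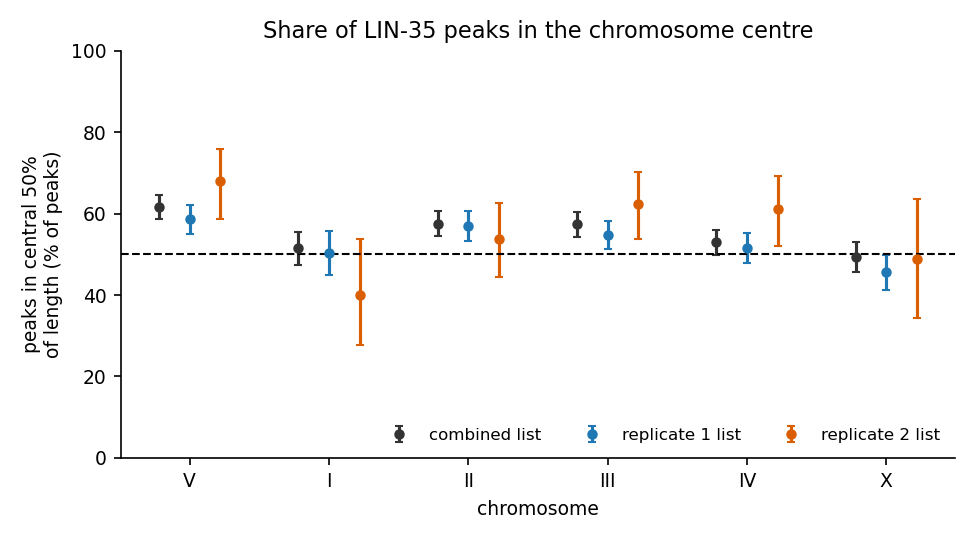
Points are the share of peaks whose midpoint lies in the central 50% of the chromosome (y axis, % of peaks) for each chromosome and list, with 95% Wilson intervals; the dashed line is the share of length. On V all 3 lists lie above the line, at 61.7%, 58.6% and 67.9%, and the combined list is not independent of the replicate lists.

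In 1 Mb bins, counts on V were uneven. The 20 whole bins held between 13 and 93 combined peaks, with a median of 49.5. The fullest was 10 to 11 Mb, which contains the middle of the chromosome, with 93 peaks. It was followed by 9 to 10 Mb with 67 and 13 to 14 Mb with 64. The emptiest were 17 to 18 Mb with 13 peaks, 19 to 20 Mb with 17 and 2 to 3 Mb with 26. All 3 of these lay in arms. In replicate 1 the same bins held 64, 39 and 33 peaks for the full ones and 13, 17 and 28 for the empty ones. In replicate 2 they held 10, 12 and 6, and 1, 1 and 3. The bin at 2 to 3 Mb was thus poor in the combined list (26 peaks) without being poor in replicate 1 (28 peaks), and the combined list there was shorter than that of replicate 1.

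Each bin was tested against its share of the length of its chromosome (exact binomial test, Benjamini-Hochberg over 103 bins of 6 chromosomes). On V, 1 of 21 bins was called higher, the one at 10 to 11 Mb (adjusted p = 1.83e-07, exact binomial test), while 2.91% of all bins were. Lower calls were made for 3 of 21 bins of V, those at 17 to 18 Mb (adjusted p = 1.83e-07), 19 to 20 Mb (adjusted p = 9.35e-06) and 2 to 3 Mb (adjusted p = 0.00572, exact binomial tests), while 9.71% of all bins were called lower. The shares on V were thus 4.76% higher and 14.3% lower. With so few bins they are near the background, which itself includes the bins of V. In replicate 1, 1 bin of V was called higher, at 10 to 11 Mb, where 2.91% of all bins were, and 2 were called lower, at 17 to 18 and 19 to 20 Mb, where 4.85% of all bins were. In replicate 2 no bin of V was called by the exact binomial test, against 0.971% of all bins called higher and 0% called lower. At an unadjusted p of 0.05 or less, 3 of 21 bins of V were higher and 1 was lower in replicate 2, where 10.7% of all bins were higher and 1.94% were lower. With the bins of the combined list shifted by 0.5 Mb, 8 of 22 bins of V were called, 3 higher and 5 lower. Of all 106 shifted bins, 6.60% were called higher and 11.3% lower. The higher ones of V were at 9.5 to 11.5 Mb and 13.5 to 14.5 Mb, and the lower ones at 1.5 to 3.5 Mb and 17.5 to 20.5 Mb. The number and limits of the bins called on V therefore depend on where the bins begin. Each stretch called without the shift overlapped a shifted one called in the same direction. The stretch at 13.5 to 14.5 Mb was called only with the shift (adjusted p = 0.0461, exact binomial test). The shifted bin at 16.5 to 17.5 Mb missed the threshold (adjusted p = 0.0509, exact binomial test).

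**Figure D3:**
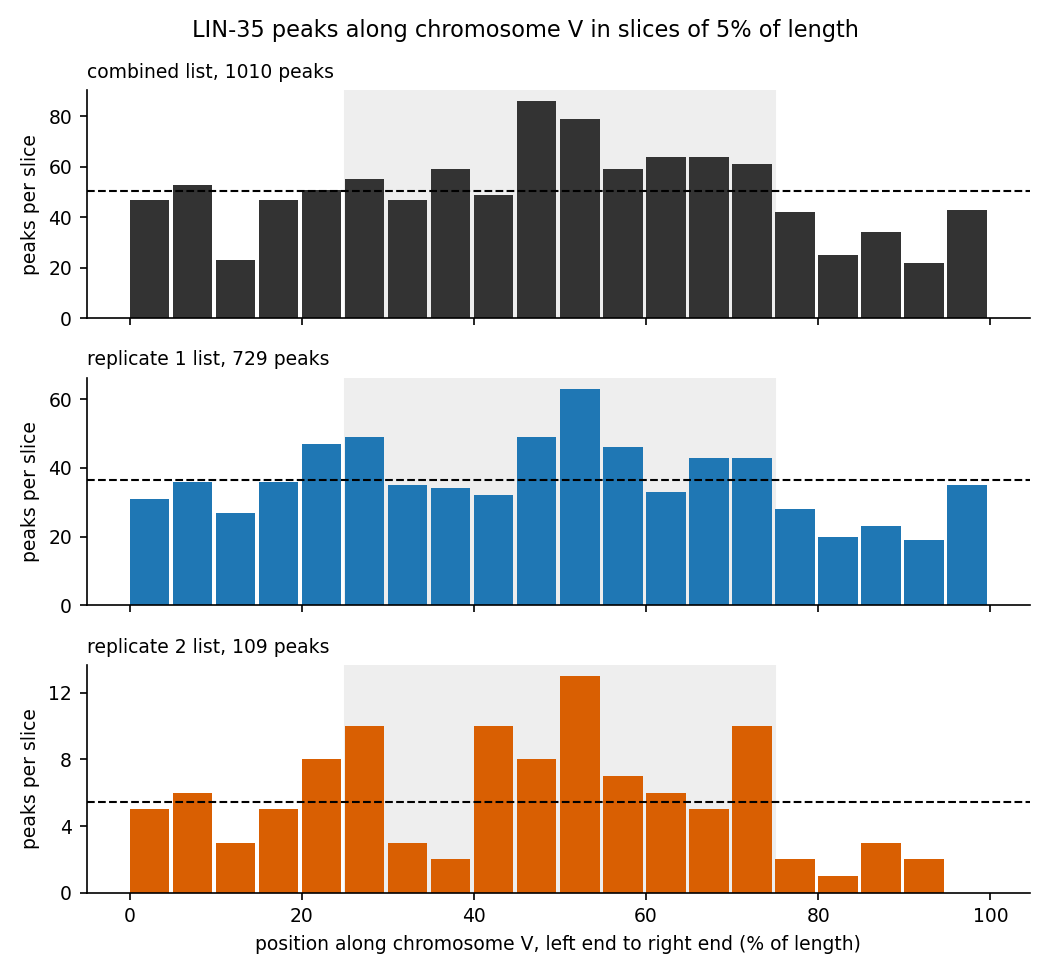
Bars are the number of peaks in each slice of 5% of the length of V (x axis, % of length from the left end) in the combined list and the lists of replicates 1 and 2; the dashed line is the mean per slice and the shaded band the central 50%. The slices at 45% to 55% hold 86 and 79 combined peaks, and the right arm from 80% to 95% lies well below the line.

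The next comparison set the left arm of V against the right. The outer 25% on the left held 221 combined peaks, or 42.3 per Mb, and the outer 25% on the right held 166, or 31.8 per Mb. The left arm thus held 57.1% (52.1 to 61.9) of arm peaks (adjusted p = 0.0120, exact binomial test). In replicate 1 there were 177 peaks on the left and 125 on the right (adjusted p = 0.00654, exact binomial test). In replicate 2 there were 27 on the left and 8 on the right, 77.1% (61.0 to 87.9) of arm peaks (adjusted p = 0.00563, exact binomial test). The left arm was the richer in all 3 lists, which are not independent. In replicate 2 the right arm of V held no peak beyond 20 Mb. The combined excess was lost when peaks less than 1 kb apart were merged into 1 (54.1% on the left, adjusted p = 0.193, exact binomial test) and with arms drawn as the outer 33.3% (53.1%, adjusted p = 0.215, exact binomial test). V was not alone in having uneven arms. In the combined list the left share was 32.7% on II (adjusted p = 5.08e-12) and 37.5% on III (adjusted p = 4.50e-07, exact binomial tests). Both lay farther from 50% than V did. The left share was 56.4% on I, 46.8% on IV and 49.6% on X, none past the threshold. In replicate 1 it was 60.3% on I (adjusted p = 0.0192, exact binomial test).

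The arms of V also differed in the make-up of their peaks. In the left arm 23 combined peaks were wider than 500 bp, and in the right arm 2 were. A q under 1e-05 was reached by 49 peaks or 22.2% in the left arm and by 17 or 10.2% in the right arm, beside 113 or 18.1% in the centre. Bases within combined peaks made up 0.899% of the left arm, 0.445% of the right arm and 1.17% of the centre. The right arm was thus the part of V with the fewest peaks, the narrowest ones and the least covered sequence. In replicate 1 the peaks covered 0.657% of the left arm, 0.363% of the right arm and 0.782% of the centre, in the same order.

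Long stretches of V held no combined peak. The longest, of 304 kb, ran from 365078 to 669466 in the left arm, and 1 weak peak of replicate 1 (rank 3713) lay inside it. The second, of 303 kb, ran from 2298056 to 2600591 and was empty in both replicates too. The other 3 of the 5 longest lay in the right arm. They were 288 kb at 17376952 to 17664482, 237 kb at 19672089 to 19908825 and 217 kb at 19177595 to 19394929. Inside these the replicate 1 list had 2, 1 and 2 peaks, none ranked above 2362, and the replicate 2 list had none.

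Gaps of 100 kb or more between combined peaks numbered 31 on V and added up to 4.57 Mb, or 21.9% of its length. Of these, 11 lay in the centre (1.33 Mb) and 20 in the arms (3.24 Mb). The longest gap was 304 kb on V, against 250 kb on I, 240 kb on II, 180 kb on III, 174 kb on IV and 190 kb on X. In the replicate lists V did not hold the longest gap, which was 374 kb on V and 421 kb on the other autosomes in replicate 1, and 989.9 kb on V and 1566 kb on the other autosomes in replicate 2. Long gaps made up 27.3% of chromosome I and between 5.60% and 10.5% of the other chromosomes. Whether unmapped or repeated sequence lies in the empty stretches was not tested.

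The empty stretches of the replicate lists were in part different ones. In replicate 1 the longest, of 374 kb at 18127378 to 18501363, contained 10 combined peaks (best rank 1210) and 2 of replicate 2. The next were 345 kb at 17414899 to 17760006 and 321 kb at 19198086 to 19519493, both in the right arm, with 1 and 2 combined peaks inside. In replicate 2 the longest, 989.9 kb at 6785354 to 7775220, lay in the centre and contained 47 combined peaks and 33 of replicate 1, the best of which had q = 6.40e-09 in replicate 1. The second, of 956 kb at 16965951 to 17921477, contained 10 peaks of the combined list and 10 of replicate 1. The third, of 905 kb at 2674102 to 3578929 in the left arm, contained 21 combined peaks and 18 of replicate 1. The longest stretch of replicate 2 was therefore well filled in replicate 1, and this difference was not tested.

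Spacing varied widely around a short median. The gap from 1 combined peak of V to the next ranged from 202 bp to 304 kb, with a median of 8.32 kb (95% interval 7117 to 9878 bp, from order statistics) and a mean of 20.5 kb. The median gap was 7.41 kb (6141 to 9267 bp) in the centre and 10.6 kb (7302 to 14898 bp) in the arms. It was 7.61 kb (4094 to 13189 bp) in the left arm and 15.1 kb (10018 to 22918 bp) in the right arm. On chromosomes I to IV together it was 6.30 kb in the centres and 8.37 kb in the arms. Gaps under 1 kb made up 15.5% of all gaps on V and 16.3% on chromosomes I to IV. They were 22.3% of gaps in the left arm, 12.1% in the right arm and 13.9% in the centre. Close neighbours formed 112 runs of 2 or more peaks, which held 268 or 26.5% of the V peaks, and the longest run had 8.

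**Figure D4:**
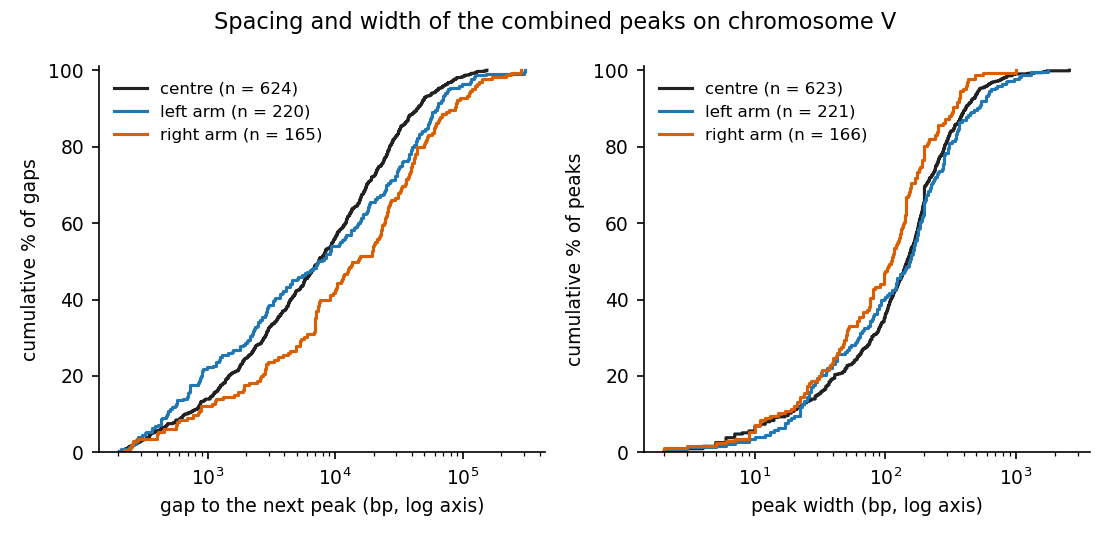
Cumulative curves of the gap to the next combined peak (left, bp, log axis) and of peak width (right, bp, log axis) for the centre, the left arm and the right arm of V. The right arm has the highest median gap, 15.1 kb, and the lowest median width, 112 bp, while the longest gap lies in the left arm.

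Many combined peaks on V were narrow. Widths ranged from 2 to 2592 bp, with a median of 141 bp and quartiles of 51.0 and 242 bp. The median on chromosomes I to IV together was 166.5 bp. Peaks under 100 bp made up 38.5% (35.6 to 41.6) of V and 33.3% (31.7 to 34.8) of chromosomes I to IV (adjusted p = 0.00319, Fisher's exact test, added after the data were seen). Within V the narrow share was 35.3% in the centre and 43.7% in the arms (adjusted p = 0.0189, Fisher's exact test, also added). Median width was 148 bp in the centre, 154 bp in the left arm and 112 bp in the right arm. In replicate 1 the median was 152 bp on V with 33.9% of peaks under 100 bp. In replicate 2 it was 274 bp, and none of the 109 peaks was under 100 bp. The combined list held 64 peaks over 500 bp on V and 12 over 1000 bp. The 3 widest were the region of 2592 bp already described, one of 1772 bp at 25291 to 27062 near the left end and one of 1741 bp at 5284009 to 5285749. The peak at the left end ranked 652 and overlapped 2 peaks of replicate 1 and none of replicate 2, while the last ranked 146 and overlapped 1 peak of each.

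Support by the replicates was then counted, as an overlap of at least 1 bp. Of the 1010 combined peaks on V, 86 or 8.51% (6.95 to 10.4) were found in both replicate lists, and 488 or 48.3% (45.2 to 51.4) overlapped replicate 1 only. A further 21 or 2.08% overlapped replicate 2 only, and 415 or 41.1% (38.1 to 44.2) overlapped neither. The replicate 2 list held only 109 peaks on V, which limits the share found in both. On chromosomes I to IV the share found in both was 9.53% (8.61 to 10.5) and that found in neither was 40.7% (39.2 to 42.4). Neither share was shown to differ between V and the other autosomes (adjusted p = 0.717 for both and 0.856 for neither, Fisher's exact test). The share found in both was 9.47% (7.41 to 12.02) in the centre of V and 6.98% (4.84 to 9.96) in its arms, which did not pass the threshold (adjusted p = 0.404, Fisher's exact test).

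Support followed strength and width. Peaks of V found in both replicates had a median width of 403.5 bp and ranked 323.5 at the median among combined peaks. Those found in replicate 1 only had a median width of 170 bp and a median rank of 2238. Those in neither had a median width of 77 bp and a median rank of 4033. All 86 peaks found in both lay in the best 25% of V peaks by q, where they made up 34.1%. Peaks in neither made up 5.16% of that best 25%, 32.8% and 53.8% of the next groups and 72.6% of the last 25%. Since q-values also decide which peaks are called, this order is a description and carries no test. A wider peak also meets an overlap of 1 bp more readily, so the link with width is in part built in. Among the 86 peaks found in both, 59 or 68.6% lay in the centre, 22 in the left arm and 5 in the right arm.

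**Figure D5:**
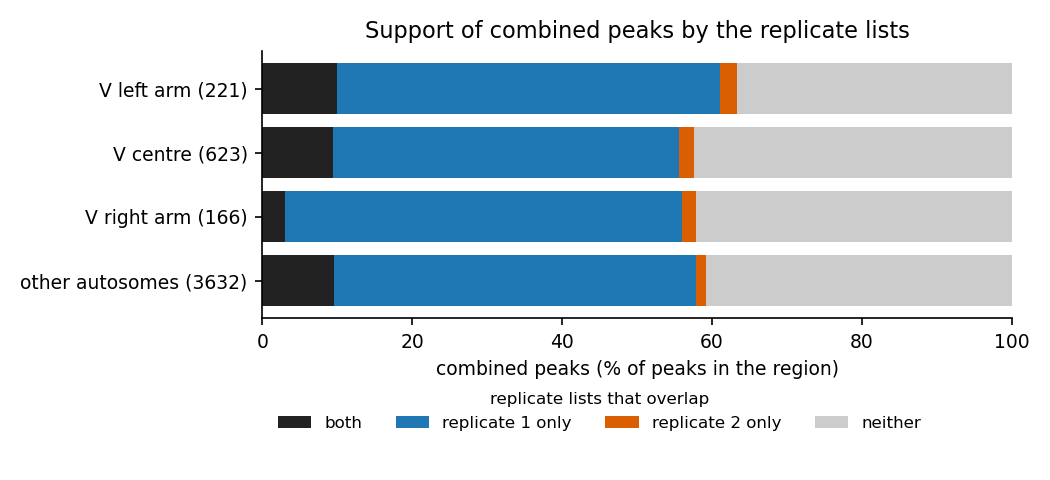
Bars divide the combined peaks of each region (number in brackets) into those that overlap both replicate lists, 1 of them or neither, in % of peaks. The share found in both is 9.95% in the left arm of V, 9.47% in its centre and 3.01% in its right arm, beside 9.53% on the other autosomes.

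Read in the other direction, the combined list contained most replicate peaks of V. It held 579 of 729 replicate 1 peaks or 79.4% (76.3 to 82.2) and 108 of 109 replicate 2 peaks or 99.1% (94.99 to 99.8). The 150 peaks of replicate 1 outside it had a median width of 60.5 bp. The share of replicate 1 peaks retained was 82.0% (78.0 to 85.3) in the centre and 75.8% (70.7 to 80.3) in the arms. Between the replicates, 85 of the 109 replicate 2 peaks on V, or 78.0% (69.3 to 84.7), overlapped replicate 1, and 86 of 729 replicate 1 peaks, or 11.8% (9.65 to 14.3), overlapped replicate 2.

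Each of the 100 strongest combined peaks of V overlapped at least 1 replicate list. The best peak without support, at V 185697 to 186020, had q = 4.89e-06 and rank 915, and the nearest replicate peak was 29341 bp away. The next, at V 1158522 to 1158970 with q = 5.21e-06, lay 881 bp from a replicate 1 peak. The third, at V 4823102 to 4823517 with q = 2.07e-05, lay 271 bp from a replicate 1 peak and 349 bp from a replicate 2 peak. All 3 were in the left arm. Of the replicate 1 peaks outside the combined list, the best were at 6872602 to 6872789 (q = 0.000571), 2721806 to 2722005 (q = 0.000913) and 5734484 to 5734609 (q = 0.00123), each at least 6471 bp from a combined peak. The single replicate 2 peak outside it, at 9384412 to 9384552, had q = 0.00632 and lay 1554 bp from the nearest combined peak.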

How the data were processed

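Peak lists of LIN-35 ChIP-seq were analysed, 1 for each of 2 precipitated samples and 1 combined list. Peaks were called with PeakSeq on coordinates of WormBase WS220 after a liftover step, per the file headers. The q-value of each peak is as deposited by the authors. How the combined list was formed is not given in the sources used here, nor are read depth, control, aligner and the version of PeakSeq.

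Peaks on V were taken from column 1 of each list. Intervals of shares are 95% Wilson intervals and cover only counting error. Counts were tested with two-sided exact binomial and Fisher's exact tests (scipy 1.17.1), each run on 6 chromosomes (or 103 bins of 1 Mb) with Benjamini-Hochberg adjustment and a threshold of 0.05. Procedures were tested on simulated data with peaks placed independently, which does not show how the tests behave where peaks cluster. Overlaps were checked with bedtools 2.31.1, which gave the same counts. Gene counts per chromosome came from RefSeq (WBcel235), whose coordinates were not joined to WS220. Genes were counted as chemoreceptors by family prefix. Some rows of the lists may not have been analysed here, which could change totals for other chromosomes.

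The peaks on V and the tests were chosen with earlier results of these data known. Named are the 10 strongest combined peaks by q, the 3 widest, the 3 best in neither replicate, the best of each replicate outside the combined list (3 of replicate 1 and the only one of replicate 2), the longest empty stretches (5 combined, 3 for each replicate) and the 3 fullest and 3 emptiest whole bins. Alternatives were other overlap rules, the better 50% of the list by q, peaks of at least 100 bp, merging of peaks less than 1 kb apart, shifted bins, other limits of the centre and each replicate alone.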

Additional observations from a re-analysis of the deposited data

How the results depend on the processing

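Of 55 alternative values computed, 33 kept their direction and side of the threshold or, for counts of bins, stayed within 1.5 times. The central share of V stayed past the threshold in the 8 alternatives run, at 58.6% to 67.9% in the single replicates, at 43.4% in the middle 33.3% of length and at 57.8% without the fullest bin, against 47.5% of the remaining length (adjusted p = 2.68e-09, exact binomial test). The contrast with other autosomes missed the threshold in either replicate alone (58.6% to 67.9% on V), among peaks found in both replicates (68.6%) and without the fullest bin (57.8%). Without chromosome I among the others it passed (adjusted p = 0.00281, Fisher's exact test). The left-arm excess missed it with merged peaks (54.1%), arms as the outer 33.3% (53.1%) and in the weaker 75% of peaks (51.7%, added after the data were seen). Called bins on V numbered 8 with bins shifted by 0.5 Mb and 0 to 3 in the single replicates, against 4, and the bin at 2 to 3 Mb was not called in replicate 1. The share found in both was on the higher side of other autosomes in the better 50% of the list (18.2%), and the share in neither on the lower side with midpoints within 100 bp (44.3%) and for peaks of at least 100 bp (27.4%), none past the threshold. Median gap was 14.9 to 106.9 kb, median width 152 to 274 bp and the longest gap 374 to 989.9 kb in the single replicates, against 16.1 kb, 245.5 bp and 653 kb in the better 50% of the list, all of which hold fewer peaks. The ratio of V to its share of length was 0.917 to 0.935 in the replicates and did not pass in replicate 2 (exact binomial test, adjusted p = 0.466). The causes of these changes were not tested. No paired analysis was possible because each replicate number has 1 peak list and inputs were not analysed here.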

Other observations

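The left-arm excess of V lay in its strong peaks. In the best 25% of V peaks by q, 70 of 95 arm peaks or 73.7% (64.0 to 81.5) lay on the left, and in the other 75% it was 151 of 292 or 51.7% (46.0 to 57.4). The difference was past the threshold (adjusted p = 0.000653, two-sided Fisher's exact test, over 6 chromosomes). Combined peaks found in both replicates made up 22 of 221 or 9.95% (6.67 to 14.6) in the left arm and 5 of 166 or 3.01% (1.29 to 6.86) in the right arm (adjusted p = 0.0496, Fisher's exact test). With a 50% reciprocal overlap the counts were 14 on the left and 5 on the right, and the difference was lost (adjusted p = 0.476, Fisher's exact test). Both contrasts were chosen after these peaks had been seen, so their p-values are no independent support.

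Across the 20 whole 1 Mb bins of V, counts in replicates 1 and 2 varied together, with a Pearson correlation of 0.73 and a Spearman correlation of 0.75. The bins share the same chromosome and peak caller, and the correlation is given as a description. By coefficient of variation the count per whole bin varied most on V, at 36.8%. It was 31.0% on II, 25.4% on III, 23.4% on I, 18.1% on IV and 13.6% on X. By variance over mean V and II were close, at 6.57 and 6.32, followed by III (4.84), I (2.12), IV (1.91) and X (0.776). This spread was not tested.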
